A study of Mus musculus with 28 samples.

Results

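The 10 genes described here are lipid-sensing nuclear receptors, a receptor coactivator, and genes of cholesterol efflux, fatty acid handling and lipid storage. The rule that picks them uses names and no measured value, although it was written with earlier results of these data known: Pparg, Ppard, Nr1h3, Ppargc1b, Abca1, Abcg1, Apoe, Lpl, Fabp4 and Plin2. Each gene had 1 probe set on the array. All 10 lay above the background floor in each of the 28 arrays, and they were tested together with the rest of the 13512 genes above background.

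PPARγ (Pparg) and PPARδ (Ppard) are nuclear receptors that bind fatty acids and their derivatives, and LXRα (Nr1h3) is a nuclear receptor that binds oxidised cholesterol. Both kinds pair with RXR receptors on DNA and switch between corepressor and coactivator complexes when a ligand binds. In macrophages, which take in lipid with dead cells and lipoproteins, LXR targets such as Abca1, Abcg1 and Apoe export cholesterol, and PPAR targets such as Fabp4 and Plin2 carry and store fatty acids. Lpl, a lipase that frees fatty acids from lipoprotein triglyceride, is a target of both.

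The study measured RNA of resident macrophages of the mouse peritoneal cavity in 7 groups of 4 arrays, each array from an independent sample. The groups were ATF7 KO mice and wild-type (WT) mice, neither injected, and wild-type mice injected intravenously with LPS, PGN, IMQ, BG or PBS and labelled as sampled 3 weeks later (3 to 4 weeks in the protocol). All mice were on a C57BL/6 background. Injected mice received their injection at 7 to 8 weeks of age and were used at 10 to 12 weeks, whereas the labels do not state the age of the uninjected mice. ATF7, a member of the ATF/CREB family of transcription factors, responds to stress kinases. The labels name no deleted exon, driver or tissue for the knockout. LPS is bacterial lipopolysaccharide, a ligand of TLR4; PGN is the cell wall polymer peptidoglycan; IMQ is imiquimod, a synthetic ligand of TLR7; and BG is the fungal polysaccharide β-glucan, a ligand of dectin-1. Cells were taken by lavage without an eliciting agent and kept overnight in serum-free medium, with loose cells washed away before and after, so every group also shares that culture. The comparisons ask how uninjected ATF7 KO cells differ from WT cells, and how cells of ligand-injected mice differ from those of PBS mice weeks later.

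Values are log2 of the deposited signal, given per array or as mean ± SD with n = 4 arrays per group. Levels of different genes come from different probes and are not set against each other. Arrays within a group correlated at 0.985 to 0.996 over all probe sets, and no label gives a batch, so batch and group cannot be told apart. The Atf7 probe set 10433032 averaged 7.08 ± 0.10 in ATF7 KO cells and 9.97 ± 0.11 in WT cells (exact permutation p = 0.0286, the smallest that 4 against 4 arrays allow). A further Atf7 probe set, 10433034, fell less, averaging 10.28 ± 0.04 in ATF7 KO and 10.73 ± 0.08 in WT cells (exact permutation p = 0.0286). Both were lower in every BG array than in every PBS array (exact permutation p = 0.0286 each). Arrays of these 2 groups did not overlap for 40.7% of all genes tested. Probe set 10433032 averaged 9.70 ± 0.09 after BG and 10.04 ± 0.23 after PBS, and 10433034 averaged 10.46 ± 0.07 and 10.71 ± 0.11. All 6 macrophage markers tested were above the floor, and their summed level lay between 14.85 and 15.00 in every array. Opposite changes of single markers can cancel in such a sum, and counts by direction are given below. B cell markers, summed over 7 genes, lay at 10.53 to 11.37 in ATF7 KO and 11.52 to 12.35 in WT arrays, and at 11.34 to 11.58 after BG and 11.74 to 12.25 after PBS. Of 7 adipocyte markers measured, 4 were above the floor of 6.32 on the 28-array mean. Adipoq, Lep and Car3 were under it in every group mean. Retn, Plin1 and Cidec were above it in every group mean, and Pck1 was under it after IMQ and PBS only. Large peritoneal macrophage markers, summed over 5 genes, lay at 13.28 to 13.76 in ATF7 KO and 14.08 to 14.43 in WT arrays, and at 12.80 to 13.06 after BG and 13.84 to 14.23 after PBS. In bulk RNA, fewer cells of a type and less RNA per cell cannot be told apart.

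Promoter windows were available for 6 of the 10 genes from the RefSeq table for GRCm38.p6, as 11 windows of 300 bases that run from 250 before to 50 after a start site. They were searched on both strands for the hexamer AGGTCA that PPAR, LXR and RXR bind, for its direct repeats DR1 and DR4 with 1 or 4 bases between the copies, for the ATF/CREB core TGACG and its palindromic full form, and for the GC box GGGCGG. DR1 and DR4 contain the hexamer, and the full ATF/CREB site contains the core. None of the 11 windows held DR1, DR4 or the full site, which occur in 0.0396%, 0.0152% and 1.79% of all 32851 windows. At such shares their absence from 11 windows carries little information. Only exact copies were searched, so receptor sites with other letters would be missed. The hexamer (16.3% of all windows) was found in 2 Pparg windows and in that of Plin2, and the ATF/CREB core (20.8%) in that of Ppard. GC boxes (35.7%) were found in windows of Abca1, Ppard, Pparg and Plin2. These matches describe letters and are not evidence of binding.
The sequences are shown because they are the receptor and target promoters whose genes are compared below, with whole motif matches in capitals. Abca1 and Plin2 are given upstream of the annotated gene on the minus strand at chr4:53159989-53160145 and chr4:86670218-86670309, and Ppard on the plus strand at chr17:28232504-28232753. Capitals mark GC boxes in Abca1 and Ppard and the reverse complement of the hexamer in Plin2. For Pparg, 30 bases are given around the hexamer of each window, on the plus strand at chr6:115361104-115361133 and chr6:115362328-115362357, where it begins at -28 and -9 from the start site of its window. Both stretches lie inside the annotated Pparg gene, chr6:115360879-115490404.
Abca1: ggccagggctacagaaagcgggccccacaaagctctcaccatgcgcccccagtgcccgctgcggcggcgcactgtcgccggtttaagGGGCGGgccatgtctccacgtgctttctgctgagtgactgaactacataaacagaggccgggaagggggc
Plin2: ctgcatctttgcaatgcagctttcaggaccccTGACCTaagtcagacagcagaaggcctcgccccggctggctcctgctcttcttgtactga
Ppard: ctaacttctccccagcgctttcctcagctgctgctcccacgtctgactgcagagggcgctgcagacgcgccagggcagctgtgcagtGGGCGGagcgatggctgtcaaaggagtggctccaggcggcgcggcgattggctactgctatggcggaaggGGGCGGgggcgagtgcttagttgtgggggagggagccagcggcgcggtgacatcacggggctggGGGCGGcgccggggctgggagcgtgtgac
Pparg, at -28: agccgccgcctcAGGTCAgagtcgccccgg
Pparg, at -9: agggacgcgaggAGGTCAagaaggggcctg

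Across the 7 groups the receptor Nr1h3 was the gene whose variation lay most between groups, which held 89.2% of its variance over the 28 arrays. Pparg followed with 79.1%, Lpl with 73.5% and Abca1 with 71.4%, beside a median of 57.2% over all genes tested. Apoe varied least by group, at 33.3%. The group means of Nr1h3 spanned 0.81 and those of Pparg 0.79 on the log2 scale, whereas those of Apoe spanned 0.17, Ppard 0.21 and Plin2 0.23 (median of all genes, 0.29).

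**Figure D1:**
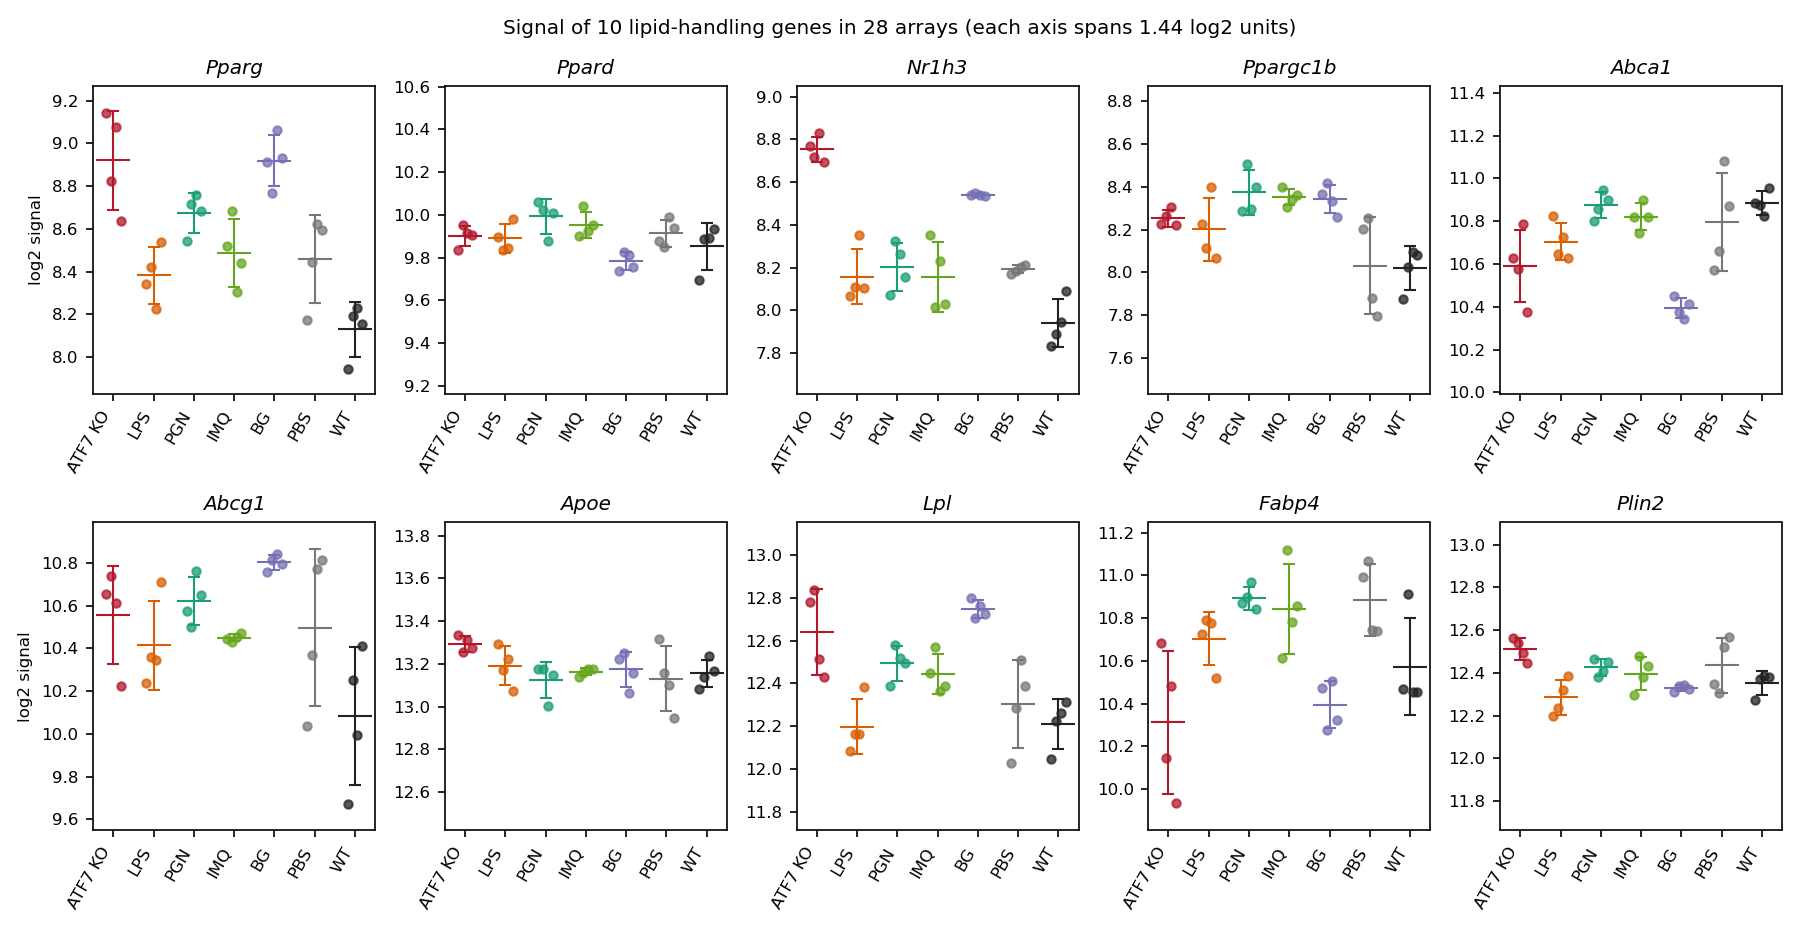
Log2 signal of the 10 genes in all 28 arrays, with a panel per gene and the groups ATF7 KO, LPS, PGN, IMQ, BG, PBS and WT from left to right. Points are arrays, horizontal bars are group means, vertical bars are SD (n = 4), and every axis spans the same number of log2 units. Nr1h3 is highest in ATF7 KO and BG arrays, Abca1 and Fabp4 have their lowest means in those groups, and Apoe is nearly level.

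In uninjected ATF7 KO mice, macrophage samples held more RNA of the lipid receptors Nr1h3 and Pparg, the lipase Lpl and the cholesterol exporter Abcg1. They held less of the cholesterol exporter Abca1. Of the 10 genes, 6 rose and 1 fell, and 7 were called in all (70%) against 28.3% of all genes tested. By direction the background was 17.7% higher and 10.7% lower. Without ATF7 KO replicate 2, and likewise without WT replicate 1, the count of called genes among the 10 was 4. The median change of the 10 genes was 0.20 on the log2 scale, against 0.01 for all genes. Here and below, a gene was called at a limma adjusted p under 0.05, with Benjamini-Hochberg adjustment over all 13512 genes.

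Among the receptors, Nr1h3 read 8.77, 8.72, 8.83 and 8.69 in ATF7 KO arrays, against 7.83, 7.89, 7.94 and 8.09 in WT arrays. Every ATF7 KO array lay above every WT array, and the gap between the nearest arrays was larger than the spread within either group. Nr1h3 rose 1.76-fold (log2 0.81, SE 0.07, limma adjusted p = 3.31e-09). Pparg read 9.14, 8.83, 9.08 and 8.64 in ATF7 KO arrays, against 7.94, 8.19, 8.23 and 8.15 in WT arrays. The groups were again separate, and Pparg rose 1.73-fold (log2 0.79, SE 0.10, limma adjusted p = 2.14e-06). Ppard, the widely expressed PPAR, averaged 9.90 ± 0.05 in ATF7 KO cells and 9.85 ± 0.11 in WT cells and was not called. Its difference had a 95% confidence interval of -0.05 to 0.15 on the log2 scale.

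Ppargc1b, which encodes the coactivator PGC-1β, read 8.22, 8.26, 8.30 and 8.22 in ATF7 KO arrays, against 7.87, 8.03, 8.09 and 8.08 in WT arrays. The groups did not overlap, and the rise of 1.18-fold (limma adjusted p = 0.0305) was small. That call ended without ATF7 KO replicate 2 or 3 or WT replicate 1 or 2 (adjusted p from 0.0544 to 0.125).

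The efflux genes went in different directions. Abca1, which passes cholesterol to lipid-poor apolipoprotein A-I, read 10.63, 10.58, 10.79 and 10.38 in ATF7 KO arrays, against 10.89, 10.87, 10.82 and 10.96 in WT arrays. All ATF7 KO arrays were below all WT arrays, the closest pair being 10.79 and 10.82, and Abca1 fell 1.23-fold (log2 -0.29, SE 0.08, limma adjusted p = 0.00548). Abcg1, which passes cholesterol to HDL, read 10.65, 10.74, 10.61 and 10.22 in ATF7 KO arrays, against 9.67, 10.25, 9.99 and 10.41 in WT arrays. The ranges overlapped through ATF7 KO replicate 4, and Abcg1 rose 1.39-fold (log2 0.47, SE 0.14, limma adjusted p = 0.0118). The Abcg1 call ended without ATF7 KO replicate 2 (0.0518) or WT replicate 1 (0.0789). Apoe, the apolipoprotein that macrophages secrete with cholesterol, read 13.33, 13.25, 13.31 and 13.27 in ATF7 KO arrays, against 13.08, 13.14, 13.24 and 13.17 in WT arrays. Although these ranges did not overlap, the difference of 0.14 was not called (limma adjusted p = 0.0722). It passed with arrays centred on their medians (0.0101), with only the groups compared in the fit (0.0369) and without WT replicate 3 (0.0433).

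Among genes of fatty acid handling, Lpl read 12.78, 12.84, 12.51 and 12.43 in ATF7 KO arrays, against 12.04, 12.22, 12.26 and 12.31 in WT arrays. Lpl rose 1.35-fold with no overlap (log2 0.43, SE 0.09, limma adjusted p = 0.000448). Plin2, a coat protein of lipid droplets, averaged 12.51 ± 0.05 in ATF7 KO cells and 12.35 ± 0.05 in WT cells and rose 1.12-fold (limma adjusted p = 0.018). That call ended without ATF7 KO replicate 1 or 2 or WT replicate 1 (adjusted p from 0.0526 to 0.0764). Fabp4, an intracellular fatty acid carrier, read 10.68, 10.15, 10.48 and 9.94 in ATF7 KO arrays, against 10.47, 10.91, 10.46 and 10.45 in WT arrays. ATF7 KO replicates 1 and 3 lay within the WT range, and Fabp4 was not called (log2 -0.26, 95% confidence interval -0.51 to -0.01, limma adjusted p = 0.122). Without ATF7 KO replicate 1 the difference was -0.38 and passed (0.0197).

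Non-overlapping arrays were found for 7 of the 10 genes, against 21.9% of all genes. Pparg, Nr1h3, Abca1 and Lpl kept their calls under each of the 15 alternative settings. All 7 B cell markers fell in the same arrays, and 3 of 5 large peritoneal macrophage markers (Gata6, Alox15 and Thbs1) fell. Another of these, Timd4, read 11.75 ± 0.13 in ATF7 KO and 11.08 ± 0.15 in WT cells, higher in every ATF7 KO array but not called (limma adjusted p = 0.0872), and Icam2 read 8.21 in ATF7 KO and 8.27 in WT cells on average. Of 6 macrophage markers 2 rose and 3 fell, and 3 of 6 monocyte and dendritic cell markers fell. The summed adipocyte markers lay at 9.02 to 9.15 in ATF7 KO and 9.00 to 9.23 in WT arrays, and 1 of 4 tested rose. Of all genes, 28.3% were called. The part of these cell type markers in these results was not tested.

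After BG, macrophage samples held more RNA of Pparg, Nr1h3, Ppargc1b and Lpl than after PBS, and less of Abca1, Fabp4 and Ppard. That made 4 genes higher and 3 lower, 7 of 10 called, against 41.6% of all genes (20.2% higher and 21.4% lower). The median change was 0.17 for the 10 genes and 0.02 for all genes on the log2 scale. Arrays did not overlap for 7 of the 10 genes, against 40.7% of all genes.

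Nr1h3 read 8.54, 8.55, 8.54 and 8.54 after BG, against 8.17, 8.18, 8.20 and 8.21 after PBS. Each group was tight around its own value, and Nr1h3 rose 1.27-fold (log2 0.35, SE 0.07, limma adjusted p = 0.00027). Pparg read 8.91, 8.77, 9.06 and 8.93 after BG, against 8.17, 8.44, 8.62 and 8.59 after PBS. All BG arrays were higher than all PBS arrays, and Pparg rose 1.38-fold (log2 0.46, SE 0.10, limma adjusted p = 0.000833). Ppargc1b read 8.36, 8.42, 8.34 and 8.26 after BG, against 8.20, 8.25, 7.88 and 7.80 after PBS. The PBS arrays fell into a higher and a lower pair, all just under or well under the BG arrays, and Ppargc1b rose 1.24-fold (limma adjusted p = 0.0031). Ppard averaged 9.78 ± 0.04 after BG and 9.91 ± 0.06 after PBS and fell 1.09-fold (limma adjusted p = 0.0402). The Ppard call ended without BG replicate 1 or 4 or PBS replicate 3 or 4 (adjusted p from 0.0835 to 0.127), with no filter on low signals (0.0526) and with quantile normalisation repeated (0.117).

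Abca1 read 10.45, 10.37, 10.34 and 10.41 after BG, against 10.57, 10.66, 11.08 and 10.87 after PBS. The BG arrays lay together below a wider PBS group, and Abca1 fell 1.32-fold (log2 -0.40, SE 0.08, limma adjusted p = 0.000208). Abcg1 read 10.76, 10.82, 10.84 and 10.80 after BG, against 10.04, 10.37, 10.77 and 10.81 after PBS. PBS replicates 3 and 4 reached the level of the BG arrays, and Abcg1 was not called (log2 0.31, limma adjusted p = 0.0825). Without PBS replicate 3 or 4 it passed (0.0356 and 0.0268). Apoe averaged 13.17 ± 0.08 after BG and 13.13 ± 0.15 after PBS and was not called.

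Lpl read 12.80, 12.70, 12.76 and 12.72 after BG, against 12.03, 12.28, 12.51 and 12.39 after PBS. It was higher in every BG array and rose 1.36-fold (log2 0.45, SE 0.09, limma adjusted p = 0.000202). Fabp4 read 10.47, 10.28, 10.51 and 10.32 after BG, against 10.99, 11.07, 10.75 and 10.74 after PBS. It was lower in every BG array and fell 1.40-fold (log2 -0.49, SE 0.12, limma adjusted p = 0.00246). Plin2 averaged 12.33 ± 0.01 after BG and 12.44 ± 0.13 after PBS and was not called (limma adjusted p = 0.0892), although it passed without PBS replicate 1 (0.0453) or 2 (0.0211).

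Pparg, Nr1h3, Ppargc1b, Abca1, Lpl and Fabp4 kept their BG calls under each of the 15 alternative settings. In the same arrays 2 of 7 B cell markers, 3 of 5 large peritoneal macrophage markers and 2 of 6 macrophage markers fell. Of 6 monocyte and dendritic cell markers 1 rose and 2 fell, and 1 of 4 adipocyte markers tested rose. Of all genes, 41.6% were called. The summed adipocyte markers lay at 8.92 to 9.03 after BG and 8.87 to 8.93 after PBS. The part of these markers in these results was not tested.

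**Figure D2:**
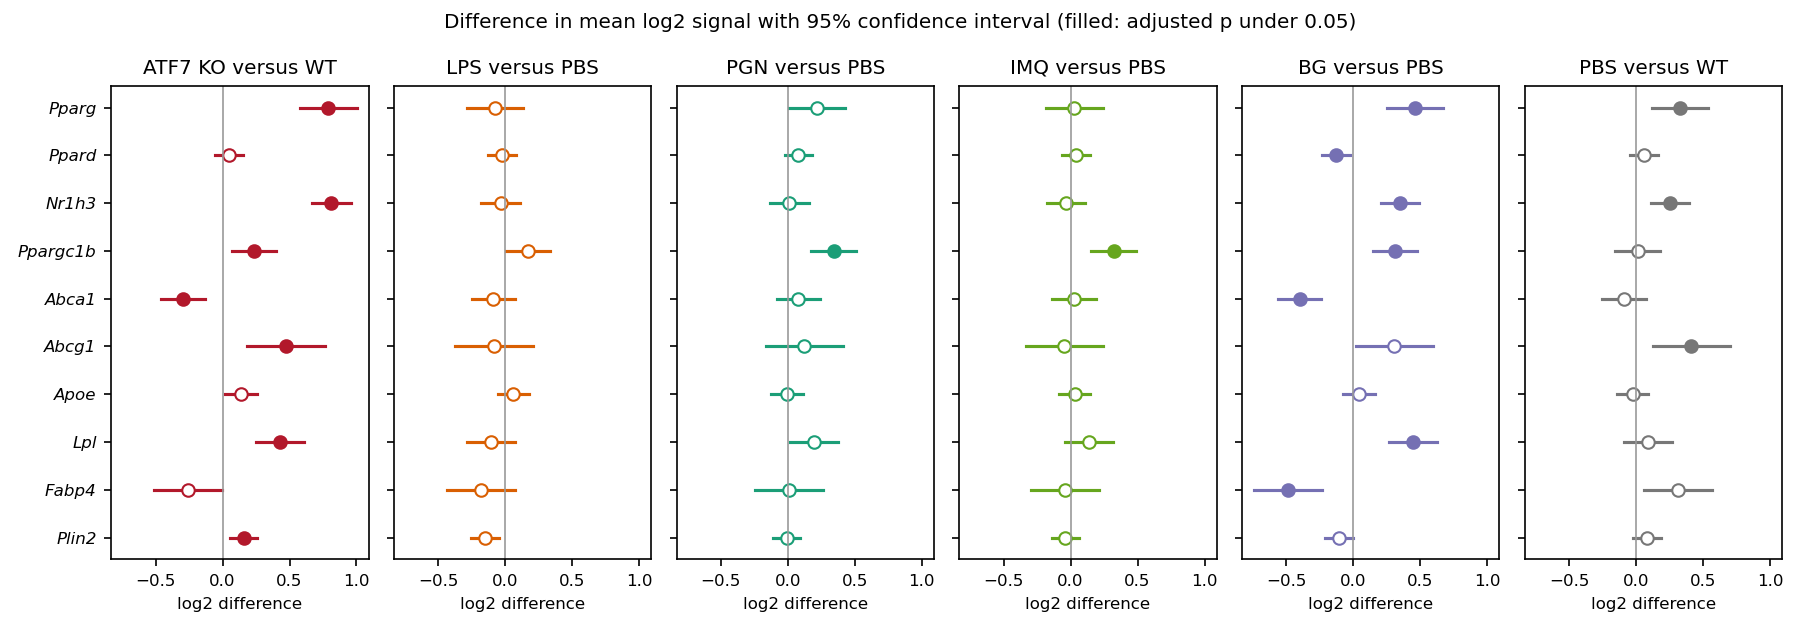
Difference in mean log2 signal for each of the 10 genes (rows) in 6 comparisons (panels), with 95% confidence intervals from limma and n = 4 arrays per group. Filled circles have an adjusted p under 0.05 and open circles do not. The panels for ATF7 KO versus WT and BG versus PBS hold 7 filled circles each, and those for LPS, PGN and IMQ hold 0, 1 and 1.

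Loss of ATF7 and BG injection share no arrays, since the first was set against WT and the second against PBS. Pparg, Nr1h3, Ppargc1b and Lpl rose and Abca1 fell in both, so 5 of 10 genes were called in the same direction, which is 71.4% of the 7 called in the knockout and 71.4% of the 7 called after BG, or 5 of the 9 called in at least 1 comparison. Ppargc1b was also called higher after PGN (0.34) and IMQ (0.32), beside 0.31 after BG. Its knockout call ended in 4 of the 15 alternative settings. Over all genes 10.7% were called in both with the same direction (1444 genes). That is 37.7% of those called in the knockout, 25.7% of those called after BG and 19.2% of those called in at least 1 comparison. Another 473 genes were called in opposite directions, none of them among the 10. Whether the overlap exceeds that of other groups of genes was not tested.

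After LPS none of the 10 genes was called against PBS, where 9.88% of all genes were, and at an unadjusted limma p under 0.05 there were 2, against 33% of all genes. The count over all genes, 1335, depended on single arrays. It was 4 without LPS replicate 2, 172 without PBS replicate 3, 440 without PBS replicate 4, 596 without LPS replicate 1 and 849 without PBS replicate 2. The 2 genes of the 10 were Ppargc1b and Plin2. Plin2 read 12.20, 12.24, 12.32 and 12.39 after LPS, against 12.35, 12.31, 12.52 and 12.57 after PBS, overlapping values with a difference of -0.15 (limma adjusted p = 0.0523). Plin2 passed with arrays centred (0.0329), with replicate number as a block (0.0473) and without LPS replicate 4 (0.0267) or PBS replicate 1 (0.0348) or 2 (0.0288). The changes of the 10 genes after LPS ran from -0.18 for Fabp4 to 0.17 for Ppargc1b, with a median of -0.08 against -0.01 for all genes. For Nr1h3, of the 10 genes the one with the largest change in the knockout, the LPS difference had a 95% confidence interval of -0.18 to 0.11. For Pparg the interval was -0.29 to 0.14.

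After PGN and after IMQ the coactivator gene Ppargc1b was called and the other 9 genes were not, against 3.91% of all genes called after PGN and 5.69% after IMQ. Ppargc1b read 8.29, 8.51, 8.30 and 8.40 after PGN, 8.40, 8.31, 8.34 and 8.36 after IMQ, and 8.20, 8.25, 7.88 and 7.80 after PBS. The ligand arrays were all higher than the PBS arrays, the nearest being PGN replicate 1 at 8.29 and PBS replicate 2 at 8.25. Of all genes, 11.2% had non-overlapping arrays after PGN and 15.2% after IMQ. The rise was 1.27-fold after PGN (log2 0.34, SE 0.08, limma adjusted p = 0.0149) and 1.25-fold after IMQ (log2 0.32, SE 0.08, limma adjusted p = 0.0176). The comparisons of PGN, IMQ and BG share the same PBS arrays, of which replicates 3 and 4 were the low ones. The PGN call ended without PGN replicate 2, PBS replicate 3 or PBS replicate 4 (adjusted p from 0.0512 to 0.0753) and with only the 2 groups compared in the fit (0.117). The IMQ call ended without IMQ replicate 1, PBS replicate 3 or PBS replicate 4 (adjusted p from 0.0592 to 0.094) and with only the 2 groups in the fit (0.0769).

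The ligands were also tested against each other. A difference among LPS, PGN, IMQ and BG was found for 6 of the 10 genes (limma F test), against 48.1% of all genes. The adjusted p was 9.59e-05 for Nr1h3, 6.63e-05 for Abca1, 0.000131 for Lpl, 0.000604 for Pparg, 0.00617 for Fabp4 and 0.00623 for Ppard. Ppargc1b, Abcg1, Apoe and Plin2 did not pass (adjusted p from 0.0693 to 0.732).

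The pairs that differed mostly involved BG. Against LPS, BG was higher for Pparg (0.54), Nr1h3 (0.38), Abcg1 (0.39) and Lpl (0.55) and lower for Abca1 (-0.31), 5 genes against 34.9% of all genes. Against PGN, BG was higher for Nr1h3 (0.34) and Lpl (0.25) and lower for Ppard (-0.21), Abca1 (-0.48) and Fabp4 (-0.50), 5 genes against 31.8%. Against IMQ, BG was higher for Pparg (0.43), Nr1h3 (0.38) and Lpl (0.31) and lower for Ppard (-0.17), Abca1 (-0.43) and Fabp4 (-0.45), 6 genes against 36.7%. The Pparg difference between BG and PGN was 0.24 (95% confidence interval 0.03 to 0.46) and did not pass (limma adjusted p = 0.0727).

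Lpl also differed between LPS and both PGN and IMQ. It read 12.08, 12.16, 12.16 and 12.38 after LPS, 12.38, 12.58, 12.52 and 12.49 after PGN, and 12.45, 12.57, 12.36 and 12.39 after IMQ. LPS was lower than PGN by -0.30 (limma adjusted p = 0.0261) and lower than IMQ by -0.24 (0.0485), with overlapping arrays against IMQ. Lpl was the only one of the 10 genes called in each of these pairs, against 12.1% and 19.2% of all genes. Between PGN and IMQ none of the 10 genes was called, and 0 of all 13512 genes were (0%, limma; 669 genes at an unadjusted p under 0.05, none of the 10 among them).

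The PBS group itself differed from uninjected WT mice, so the ligand comparisons start from another level than the knockout comparison. Pparg, Nr1h3 and Abcg1 were higher after PBS, 3 of 10 genes against 32.7% of all genes. Nr1h3 was higher in each PBS array than in each WT array (log2 0.25, SE 0.07, limma adjusted p = 0.00825), and it was the 1 gene of the 10 without overlap, against 22.8% of all genes. Pparg (log2 0.33, limma adjusted p = 0.0183) and Abcg1 (log2 0.41, 0.0272) overlapped between the groups. The Pparg call ended without PBS replicate 3 or 4 or WT replicate 1 (adjusted p from 0.0599 to 0.0798) and with quantile normalisation repeated (0.056). The Abcg1 call ended without PBS replicate 3 or 4 or WT replicate 1 or 3 (adjusted p from 0.0501 to 0.144), with quantile normalisation repeated (0.0576) and with only the 2 groups in the fit (0.126). Fabp4 averaged 10.89 ± 0.17 after PBS and 10.57 ± 0.23 in WT cells and was not called (log2 0.31, limma adjusted p = 0.0526). It passed with arrays centred (0.0204), with replicate number as a block (0.0407) and without PBS replicate 4 (0.0469) or WT replicate 2 (0.0171). Injection, age and batch cannot be told apart in this comparison.

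In the order of the group means, Pparg was highest in ATF7 KO (8.92) and BG (8.92) arrays, which overlapped, and lowest in WT (8.13). Nr1h3 was highest in ATF7 KO (8.75) and next in BG (8.54), without overlap between them or with the group that followed, PGN (8.20). PGN, PBS, LPS and IMQ overlapped with their neighbours in that order, and WT was lowest (7.94). Abca1 ran the other way, with BG lowest (10.39), ATF7 KO next (10.59) and WT highest (10.89). For Lpl the order began with BG (12.75) and ATF7 KO (12.64), and for Fabp4 it ended with BG (10.40) and ATF7 KO (10.31). Every pair of neighbours overlapped in the orders of Ppard, Ppargc1b, Abca1, Abcg1, Apoe, Lpl, Fabp4 and Plin2.

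Opposite movement within functional pairs can be read inside each array, which removes the scale of the array. The 2 pairs were chosen after their values were seen and are not tested, and only the change between groups has a meaning, since the probes differ. Abcg1 minus Abca1 ran from -0.17 to 0.16 in ATF7 KO arrays and from -1.21 to -0.54 in WT arrays. It ran from 0.31 to 0.50 after BG and from -0.53 to -0.06 after PBS. Both comparisons therefore separated completely, upward in the ATF7 KO and BG arrays. LPS arrays ran from -0.58 to 0.08, PGN arrays from -0.36 to -0.18 and IMQ arrays from -0.44 to -0.31. LPS replicate 4 (0.08) and PBS replicate 4 (-0.06) lay inside the ATF7 KO range of Abcg1 minus Abca1. Lpl minus Fabp4 ran from 2.03 to 2.69 in ATF7 KO and from 1.31 to 1.86 in WT arrays, and from 2.26 to 2.43 after BG and from 1.03 to 1.76 after PBS. Arrays of LPS (1.36 to 1.86), PGN (1.52 to 1.68) and IMQ (1.45 to 1.83) lay below the ATF7 KO and BG ranges of Lpl minus Fabp4.

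**Figure D3:**
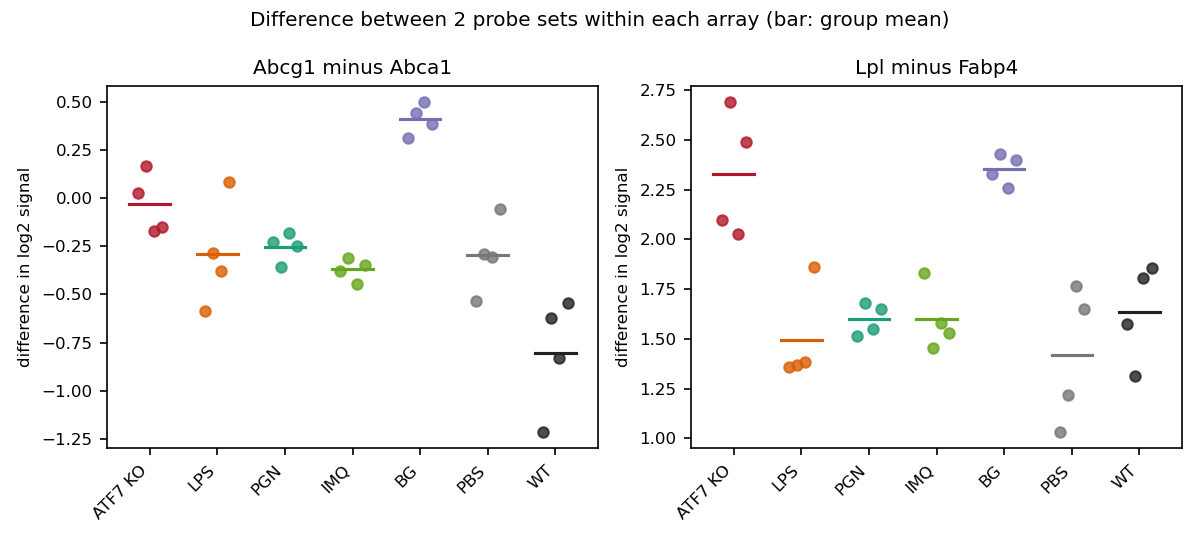
Difference in log2 signal between 2 probe sets of the same array, Abcg1 minus Abca1 on the left and Lpl minus Fabp4 on the right, for the 7 groups of 4 arrays. Points are arrays and bars are group means. BG arrays lie between 0.31 and 0.50 on the left and between 2.26 and 2.43 on the right, apart from all PBS arrays.

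With group means removed, 8 of 45 gene pairs had a Pearson correlation over 0.5 across the 28 arrays, and the pairs ranged from -0.53 to 0.78. The closest pairs were Abcg1 with Lpl (0.78), Abcg1 with Plin2 (0.72) and Pparg with Lpl (0.71). Abca1 and Abcg1 correlated at 0.54 within groups and at -0.22 when the group means were kept. Pparg and Nr1h3 showed the reverse, 0.08 within groups and 0.79 with group means kept. These values share arrays and normalisation and are descriptions.

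By the Pearson correlation over all 28 arrays, the genes outside the 10 whose levels were most like Nr1h3 were Ralgds (0.94), Rasgef1b (0.93) and Dcbld2 (0.92). For Pparg they were Plxnd1 (0.90), Comtd1 (0.90) and Akr1b8 (0.90), and for Lpl they were Mmp13 (0.94), Myof (0.94) and Atp6v1h (0.93). Abca1 was most like Serinc5 (0.86), Chp1 (0.85) and Nr4a1 (0.83), Abcg1 like Cdk6 (0.91), and Fabp4 like Epas1 (0.88). The nearest genes were Acvr1 for Ppard (0.84), Susd6 for Ppargc1b (0.86), Sdcbp for Plin2 (0.85) and H2-K2 for Apoe (0.79). These are descriptions of 28 arrays that share the differences between groups.

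The wider pathway was read from 5 lists of other genes, whose shares of called genes stand here beside those of all genes. In the ATF7 knockout 28.3% of all genes were called, 17.7% higher and 10.7% lower. PPAR targets and genes of fatty acid oxidation gave 7 rises and 1 fall among 20 tested (40% called), with a median change of 0.09 against 0.01 for all genes. Wild-type PBS arrays set against the same WT arrays gave 9 rises and 0 falls in this list (45% called against 32.7% of all genes). The median change there was 0.13 against 0.02 for all genes. Fabp3, a fatty acid carrier, averaged 8.56 ± 0.05 in ATF7 KO cells and 7.64 ± 0.13 in WT cells, a rise of 1.89-fold (limma adjusted p = 2.2e-10). Pdk4, a kinase that holds pyruvate back from oxidation, rose 1.41-fold (7.85 ± 0.23 in ATF7 KO and 7.35 ± 0.14 in WT, limma adjusted p = 0.0108). Angptl4, a secreted inhibitor of lipoprotein lipase, rose 1.34-fold (9.38 ± 0.08 in ATF7 KO and 8.96 ± 0.12 in WT, limma adjusted p = 5.45e-06). Angptl4 was also higher after PBS than in WT cells (log2 0.25, limma adjusted p = 0.00313). The fall was that of Olr1, a receptor for oxidised LDL, by 1.74-fold (8.97 ± 0.10 in ATF7 KO and 9.76 ± 0.25 in WT, limma adjusted p = 0.00057).

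Other LXR targets gave 2 rises and 3 falls among 13 in the knockout (38.5% called), with a median of -0.06. Scd1, which desaturates stearate, fell 2.21-fold (9.02 ± 0.43 in ATF7 KO and 10.16 ± 0.38 in WT, limma adjusted p = 4.49e-05). Smpdl3a, a phosphodiesterase gene, fell 1.21-fold, and Srebf1, the transcription factor of fatty acid synthesis, rose 1.11-fold (limma adjusted p = 0.00206, and 0.0691 with only the 2 groups in the fit). Among genes of lipoprotein uptake and intracellular cholesterol, 4 of 16 rose and 0 fell, and that 25% called was below the share of all genes. Npc2 and Lipa, the cholesterol carrier and the acid lipase of lysosomes, rose 1.31-fold (limma adjusted p = 5.6e-06) and 1.24-fold (0.000299), and Stard3, a cholesterol-binding protein of late endosomes, rose 1.29-fold (9.89e-07). Lipid droplet and triglyceride genes gave 2 rises and 1 fall among 19 (15.8% called), also below it, the fall being that of Bscl2, which encodes seipin (1.27-fold, limma adjusted p = 0.00012). Receptor partners and coregulators gave 2 rises and 3 falls among 12 (41.7% called), with Pprc1, a relative of Ppargc1b, 1.18-fold higher (0.0028) and Tbl1xr1, a corepressor component, 1.31-fold lower (9.18e-06).

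After BG, where 41.6% of all genes were called (20.2% higher and 21.4% lower), each of the 5 lists held more falls than rises. The PBS reference itself differed from WT, with 32.7% of all genes called. It gave 5 rises and 0 falls among 12 coregulators, 3 and 0 among 13 LXR targets and 9 and 0 among 20 PPAR targets. Lipid droplet genes gave 6 and 3 among 19, and lipoprotein genes 5 and 1 among 16. The part of this PBS level in the falls after BG was not tested. After BG, receptor partners and coregulators gave 1 rise and 7 falls among 12 (66.7% called), with a median of -0.19 against 0.02 for all genes. Rxra, the RXR partner of PPAR and LXR, averaged 9.76 ± 0.09 after BG and 10.01 ± 0.11 after PBS and fell 1.19-fold (limma adjusted p = 0.000729). The corepressor deacetylase gene Hdac3 fell 1.28-fold (limma adjusted p = 7.22e-07) and the coactivator gene Med1 fell 1.21-fold (1.85e-05), while Pprc1 rose 1.23-fold (0.000228).

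LXR targets gave 2 rises and 7 falls among 13 after BG (69.2% called), with a median of -0.23. Lpcat3, which builds polyunsaturated phospholipids, averaged 10.30 ± 0.03 after BG and 10.76 ± 0.04 after PBS and fell 1.37-fold (limma adjusted p = 9.47e-08). Apoc1, an apolipoprotein gene, fell to 6.21 ± 0.08 after BG, under the floor, against 6.81 ± 0.39 after PBS (limma adjusted p = 0.00186), so no fold is given. Scd1 fell 1.43-fold (limma adjusted p = 0.0308), a call that ended without BG replicate 2 or 3 or PBS replicate 1 or 2 (0.0568 to 0.127). Abcb4, a phospholipid transporter gene, rose 1.32-fold (0.00104) and Srebf1 rose 1.10-fold (0.00487).

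PPAR targets and fatty acid oxidation genes gave 3 rises and 6 falls among 20 after BG, and the 45% called was near the share of all genes. Olr1 had the largest fall, to 8.33 ± 0.25 after BG against 9.60 ± 0.32 after PBS (2.40-fold, limma adjusted p = 1.17e-06). Fabp5, a fatty acid carrier like Fabp4, fell 1.47-fold (limma adjusted p = 2e-05), and Slc27a4, a fatty acid transport protein gene, fell 1.39-fold (1.22e-06). Angptl4 rose 1.19-fold (limma adjusted p = 0.0016), and the acyl-CoA dehydrogenase gene Acadvl rose 1.16-fold (0.000412).

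Lipid droplet and triglyceride genes gave 4 rises and 6 falls among 19 after BG (52.6% called), with the diacylglycerol acyltransferase genes on opposite sides. Dgat1 fell 1.31-fold (8.30 ± 0.08 after BG and 8.69 ± 0.12 after PBS, limma adjusted p = 4.83e-06), and Dgat2 rose 1.31-fold (7.01 ± 0.14 after BG and 6.63 ± 0.07 after PBS, limma adjusted p = 0.00015). Bscl2 fell 1.59-fold (limma adjusted p = 5.9e-09) and Lpin1, a phosphatidate phosphatase gene, fell 1.32-fold (0.000729). Genes of lipoprotein uptake and intracellular cholesterol gave 0 rises and 7 falls among 16, and the 43.8% called was near the share of all genes. Sort1, a sorting receptor, fell 1.30-fold (limma adjusted p = 0.00021), Lmf1, which matures lipoprotein lipase, fell 1.19-fold (2.7e-05), and Osbp, an oxysterol-binding protein gene, fell 1.16-fold (0.000266).

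**Figure D4:**
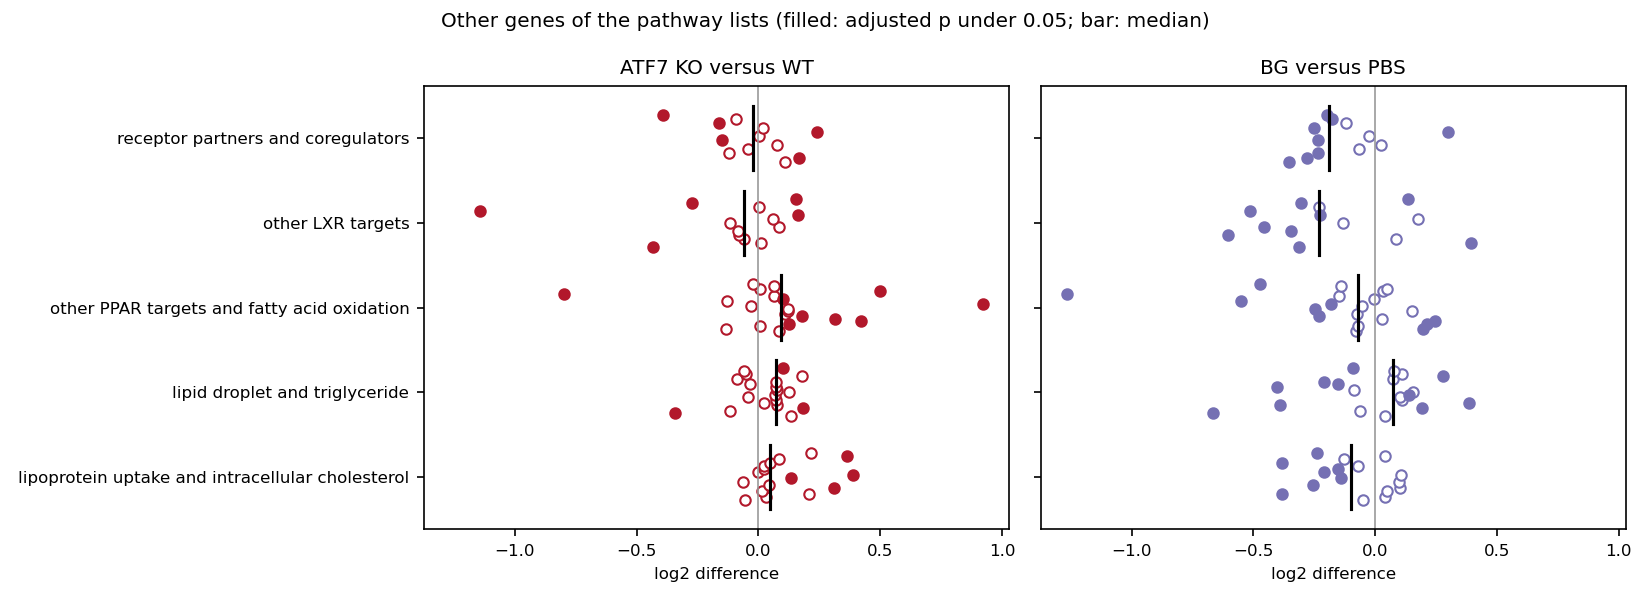
Log2 difference of each tested gene of 5 pathway lists (rows; the 10 main genes are not among them) for ATF7 KO versus WT on the left and BG versus PBS on the right. Filled points have a limma adjusted p under 0.05, and black bars are list medians. After BG most filled points of the coregulator, LXR target and lipoprotein lists lie left of 0, and in the ATF7 KO panel most filled points of the PPAR target and lipoprotein lists lie right of 0.

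In the LPS, PGN and IMQ comparisons the same 5 lists held between 0 and 2 called genes each. The share called per list ran from 0% to 10.5% after LPS, against 9.88% of all genes. It ran from 0% to 5.26% after PGN, against 3.91%, and from 0% to 10.5% after IMQ, against 5.69%. Pnpla2, the main triglyceride lipase of lipid droplets, fell 1.16-fold after PGN (limma adjusted p = 0.000978) and 1.23-fold after IMQ (1.88e-05). Rxra fell 1.19-fold after IMQ (limma adjusted p = 0.00775), and Sort1 fell 1.27-fold after LPS (0.0144), a call that ended without LPS replicate 2 (0.0739).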

How the data were processed

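RNA of 28 samples was hybridised to Affymetrix whole-transcript arrays, 1 sample per array, from 100 ng of total RNA per the labels' protocols. The deposited values are intensities on a linear scale for 35556 probe sets, which the authors summarised with RMA in Affymetrix Expression Console, per the submitters' processing notes. Its version is not given in the sources used here, nor is the build of the array annotation. Array medians lay between 107 and 115 and no further normalisation was applied. The number of arrays limits the precision. Limma p-values rest on a spread between independent samples that is pooled per gene over all 7 groups and moderated across genes. They do not measure the spread of the 2 groups compared alone.

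The intensities were taken to log2. Of 23410 probe sets with a gene, 21789 had a single symbol, 1621 had several and were not named, and 12146 probe sets had no gene in the platform annotation. A probe set was kept when at least 4 arrays exceeded 6.32, the 95th percentile of 1210 odorant receptor probe sets, and the brightest probe set stood for a gene. A model over all 7 groups was fitted to 13512 genes with limma 3.58.1 (lmFit, then eBayes with an intensity trend) in R 4.3.3. P-values were adjusted by the Benjamini-Hochberg method over all genes, with calls under 0.05. Exact permutation tests are two-sided.

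The genes and the pathway lists were chosen with earlier results of these data known. From each list the 3 largest rises and 3 largest falls per comparison, among called genes whose groups did not overlap, could be named. On simulated arrays for LPS versus PBS, with 13512 genes of which 200 were shifted, 93% of shifts of 0.5 and 100% of shifts of 1 were recovered. Another 9 genes without a shift were called. Noise was drawn separately for each gene and array, and no shift under 0.5 was simulated. These rates therefore do not cover smaller changes or noise that genes of an array share. Figures and promoter searches used Python 3.11.15 and matplotlib 3.10.9. Alternatives were other scalings, filters, probe set rules, variance models, fits and each array left out.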

Additional observations from a re-analysis of the deposited data

Results flagged for a closer look

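In 4 of 70 groups of 4 arrays, a group being 1 of the 10 genes in 1 of the 7 conditions, an array stood apart by Dixon's test at the 95% level. Chance gives about 1 in 20. Nr1h3 read 8.35 in LPS replicate 3, with the nearest LPS array at 8.11. Apoe read 13.00 in PGN replicate 3, with the nearest PGN array at 13.15. Fabp4 read 10.91 in WT replicate 2, with the nearest WT array at 10.47. Plin2 read 12.27 in WT replicate 1, with the nearest WT array at 12.37.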

How the results depend on the processing

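Of 60 results for the 10 genes in the 6 comparisons with PBS or WT, 46 kept their side of the threshold under every alternative. In 21 the sign of the change differed between settings, none of them a called result (0 reversed). With arrays centred on their medians, 1 of the 10 genes passed after LPS, where 0 had. With quantile normalisation repeated, 863 genes passed after LPS, and 1 of the 10 passed for PBS against WT. With only the groups compared in the fit, 2409 genes passed for ATF7 KO, 508 for LPS, 272 for PGN and 2066 for PBS against WT, and 0 of the 10 passed for PGN and for IMQ. Leaving out an array in turn gave 2942 to 3991 genes and 4 to 8 of the 10 for ATF7 KO, 4 to 1558 and 0 to 1 for LPS, 283 to 483 and 0 to 1 for PGN, and 400 to 758 and 0 to 1 for IMQ. It gave 4837 to 5277 genes and 6 to 8 of the 10 for BG, 2752 to 5306 and 1 to 4 for PBS against WT, and 5578 to 6492 and 6 to 8 for the test among ligands. The causes were not tested. Nothing in the labels ties the replicate numbers to a shared animal or day, and in no comparison did all 4 same-numbered pairs have deviations that correlated over 0.1, so the numbers were not taken as pairing. The correlations ran from -0.35 to 0.10 for ATF7 KO with WT, -0.20 to 0.45 for LPS, 0.05 to 0.26 for PGN, -0.24 to 0.07 for IMQ and -0.02 to 0.17 for BG, each with PBS, and -0.21 to 0.24 for PBS with WT. In PGN 3 of 4 arrays correlated best with their own number. With replicate number as a block, 1 of the 10 genes passed after LPS (0 without) and 4 for PBS against WT (3 without).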
